A study of Mus musculus with 4 samples.

Results

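Messenger RNA of the nuclear-encoded respiratory chain and ATP synthase was measured in mouse epididymal white adipose tissue, the fat pad that lies along the epididymis. Members were the protein-coding genes whose symbol begins with Nduf, Uqcr, Cox followed by a digit, or Atp5, together with Sdha, Sdhb, Sdhc, Sdhd and Cyc1. The rule took 103 of the 39179 genes in the table: 36 of complex I, 4 of complex II, 9 of complex III, 19 of complex IV, 15 of the ATP synthase and 20 assembly factors or related proteins. The study compared 2 libraries labelled WT with 2 labelled Nck2 KO, whose genotype is given as Nck2 mutant. The Nck2 protein is an adaptor between phosphorylated tyrosine receptors and the actin cytoskeleton. All 4 libraries came from mice of a mixed genetic background. The allele, the cells it acts in and the ages of the mice are not given in the sources used here. Nothing in the labels says that replicates came from separate mice, so each p-value reflects the spread among these 4 samples and no more, which may be technical.

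The respiratory chain sits in the inner mitochondrial membrane. Complex I takes electrons from NADH and complex II takes them from succinate; both pass them to ubiquinone, from which complex III hands them to cytochrome c and complex IV to oxygen. Complexes I, III and IV pump protons, and the ATP synthase lets the protons return while it makes ATP. Most subunits are encoded in the nucleus, a few in mitochondrial DNA. Several complex IV subunits exist in alternative forms from separate genes. Cox6a2, Cox7a1 and Cox8b are the forms of heart and skeletal muscle, and Cox7a1 and Cox8b are also abundant in brown fat. Cox4i2 is a lung form, and Cox6b2, Cox7b2 and Cox8c are forms of the testis. White fat holds fewer mitochondria than brown fat.

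Promoters of these genes are known for short elements bound by NRF1, by ETS factors such as GABPA, and by YY1. The windows below show where NRF1 and ETS letters lay upstream of members that rose, fell or did not pass. They run 5′ to 3′ on the gene's own strand, upstream of the RefSeq start in GRCm38.p6, and were shortened so that no more than 20 bases of an annotated untranslated region stand at either end. Capitals mark the letters GCGCATGC (NRF1) or CCGGAAG (ETS), read on either strand. Ndufa6 and Ndufa11 fell, Atp5k and Sdhd rose, Cox6a1 did not pass the test, and Atp5g1, the member with the greatest fall, had none of the motifs. In Atp5k the ETS letters lay in the part of the promoter window that is not printed.
Ndufa6, chr15:82354303-82354541, minus strand: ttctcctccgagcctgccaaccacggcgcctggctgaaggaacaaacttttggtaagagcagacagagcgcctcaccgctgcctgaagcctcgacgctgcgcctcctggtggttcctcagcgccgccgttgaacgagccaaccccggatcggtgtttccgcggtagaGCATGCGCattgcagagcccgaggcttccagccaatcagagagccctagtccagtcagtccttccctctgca
Ndufa11, chr17:56717666-56717761, plus strand: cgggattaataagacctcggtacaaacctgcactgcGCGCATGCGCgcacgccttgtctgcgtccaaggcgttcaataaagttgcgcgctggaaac
Atp5k, chr5:108434429-108434649, minus strand: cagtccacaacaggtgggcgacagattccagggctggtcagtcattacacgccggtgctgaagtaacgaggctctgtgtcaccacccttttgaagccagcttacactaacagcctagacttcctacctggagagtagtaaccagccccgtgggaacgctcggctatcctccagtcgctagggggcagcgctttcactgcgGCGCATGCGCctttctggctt
Cox6a1, chr5:115348962-115349208, minus strand: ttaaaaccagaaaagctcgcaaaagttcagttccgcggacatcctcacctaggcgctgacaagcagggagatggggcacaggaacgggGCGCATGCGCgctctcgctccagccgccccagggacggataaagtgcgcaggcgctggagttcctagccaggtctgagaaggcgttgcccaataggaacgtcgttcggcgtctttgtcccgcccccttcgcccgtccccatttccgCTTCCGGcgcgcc
Sdhd, chr9:50603850-50603929, minus strand: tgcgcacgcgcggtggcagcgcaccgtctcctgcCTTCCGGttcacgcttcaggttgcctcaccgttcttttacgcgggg
Atp5g1, chr11:96075651-96075881, minus strand: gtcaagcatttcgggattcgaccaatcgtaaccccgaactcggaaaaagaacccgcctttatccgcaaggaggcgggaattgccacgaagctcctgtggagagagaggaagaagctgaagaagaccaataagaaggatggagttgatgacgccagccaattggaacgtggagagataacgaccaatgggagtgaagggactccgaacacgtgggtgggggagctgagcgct

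RefSeq symbols matched all 103 members, and 83 had a window of 300 bases, 250 before and 50 after the start. GCGCATGC, searched on both strands like the other motifs, stood in 12 member windows (14.5%), against 2.8% of all 27025 mouse windows. CCGGAAG stood in 21 (25.3%, against 9.12%) and AAGATGGC, the YY1 letters, in 12 (14.5%, against 2.88%). The TATA box letters TATAAA stood in 8 (9.64%, against 14.2%). Member windows were also richer in G and C, with a median of 59% against 52.7%. Of the 12 with the NRF1 letters 1 rose, 2 fell and 9 did not pass, and of the 21 with the ETS letters 6 rose, 0 fell and 15 did not pass. Of the 12 with the YY1 letters 0 rose, 1 fell and 11 did not pass. By the test described below, 22.4% of all 16710 tested genes were called higher and 24.4% lower. A link between motif and call was not tested. Among the 45 windows with none of NRF1, ETS or YY1 letters, 9 members rose and 2 fell. Windows of Sdhd, Ndufs3, Cox6b1, Ndufaf1, Atp5e and Atp5k were the 6 that held ETS letters and belonged to members that rose.

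The deposited values are normalized counts, that is reads scaled by a single factor per library, and the 4 libraries held 31831904 to 37980391 reads. Nck2 itself (chr1:43444579-43570515) stood at 1279 and 1667 normalized counts in WT and 1076 and 947 in KO. Both KO values were lower, by a log2 difference of -0.53 ± 0.16 (SE, n = 2 per group, limma, Benjamini-Hochberg adjusted p = 0.0509). RNA of this gene remained, and the part altered in the mutant is not given, so its level does not check the genotype. Markers of several other tissues and cell types differed between the groups. Mature adipocyte markers rose in 8 of 12 and fell in 0, with a median log2 difference of 1.62 and summed levels of 469866 to 703605 in WT against 1642861 to 1876358 in KO. All 8 tested markers of epididymal epithelium fell, from sums of 1146397 to 1430793 in WT to 345 to 467 in KO, where Lcn5, Lcn8 and Lcn9 were at 0. All 8 smooth muscle markers fell as well, from sums of 429267 to 564008 to sums of 14410 to 17206. All 6 macrophage markers rose, from sums of 16373 to 16815 to sums of 34955 to 38174. Of 7 tested testis germ cell markers 2 fell and 0 rose (sums of 412 to 2327 in WT, 23 to 138 in KO), and of 6 pericyte markers 1 rose and 1 fell (19651 to 21539, 24047 to 26598). The part of tissue makeup in the results below was not tested. In bulk tissue, fewer cells of a type and less RNA per cell cannot be told apart.

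Most members did not pass the test of KO against WT, read on log2(normalized count + 1). Of the 100 members whose mean normalized count reached 10, 19 rose and 6 fell at an adjusted p under 0.05 (limma, Benjamini-Hochberg over all 16710 genes tested). Over all tested genes 22.4% were called higher and 24.4% lower, so the share of members that rose, 19%, lay near the background and the share that fell, 6%, lay below it. The median log2 difference of the members was 0.20, against -0.01 for all tested genes, and 79 of 100 members had a positive value. Single values ran from -1.24 for Atp5g1 to 2.76 for Cox8b, the latter short of the threshold. Both KO libraries lay above both WT libraries for 57 members (38.9% of all tested genes did so) and below for 11 (40.6%), and the groups overlapped for 32. Cox7b2, Cox8c and Atp5l-ps1 were too low to test. Calls were sensitive to single libraries: without WT replicate 1, or without WT replicate 2, 1 member was called higher and 1 lower; without KO replicate 2 the counts were 4 and 4, and without KO replicate 1 they were 30 and 3. Ndufb3, called higher, and Atp5g1, called lower, were the members called in all 4 of these reduced sets.

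**Figure D1:**
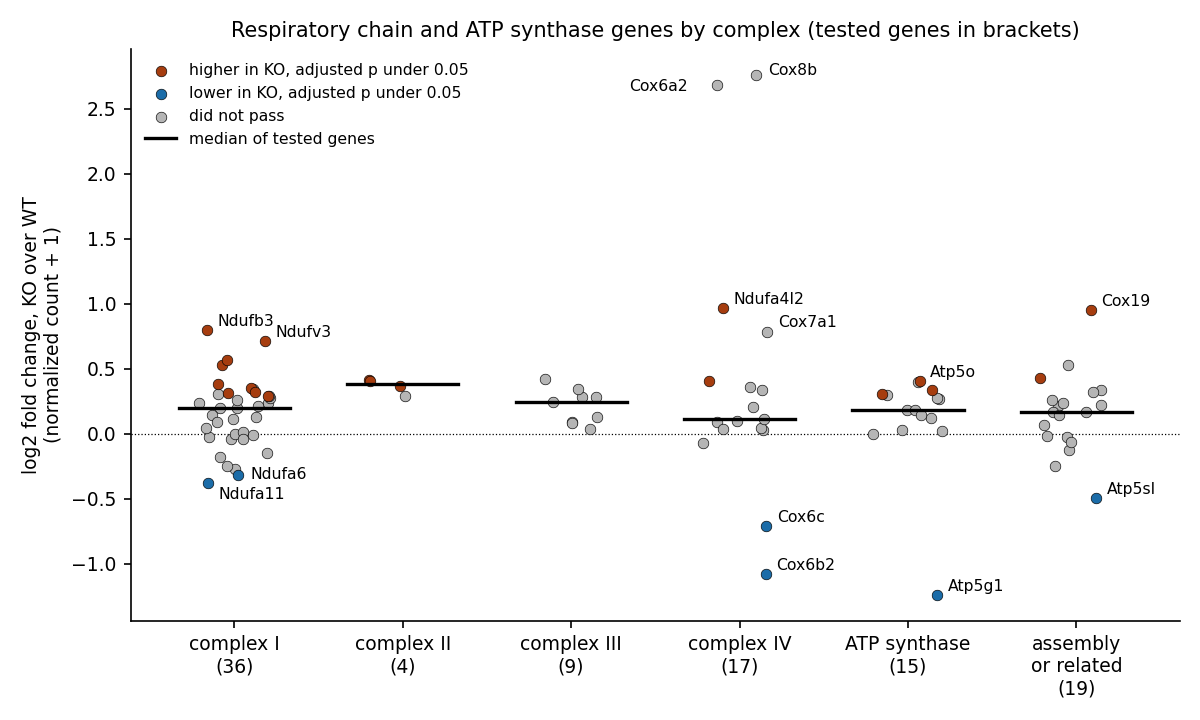
Log2 fold change of each tested member, KO over WT on log2(normalized count + 1), by complex. Each point is a gene, coloured by its limma call, and bars are medians; most points lie between 0 and 0.5, complex II is wholly above 0, and complex IV and the ATP synthase hold the greatest rises and falls.

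The KO libraries differed from each other in a way that ran across the members. KO replicate 2 lay above KO replicate 1 for 93 of 100 members, including 36 of 36 of complex I and 9 of 9 of complex III, with a median log2 difference of 0.20 between these libraries. Over all tested genes it lay above for 8876 of 16710, with a median of 0.02. The median member level on log2(normalized count + 1) was 11.2 and 11.1 in WT and 11.3 and 11.5 in KO. As a share of all reads, the members took 1.07% and 1.05% in WT and 1.04% and 1.11% in KO. The exact 95% binomial intervals of these shares were 1.07 to 1.08%, 1.04 to 1.05%, 1.03 to 1.04% and 1.11 to 1.12%, and cover counting error only. By that measure the groups overlapped, with the lowest and the highest share both in KO libraries. Without KO replicate 2, the median log2 difference of the members was 0.11.

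Complex I, the entry point for NADH, had 9 members that rose and 2 that fell, while 25 did not pass, and its median log2 difference was 0.20. The share that rose, 25%, was near the 22.4% of all tested genes called higher. Of its 7 core subunits, which carry the flavin and the iron-sulfur clusters, 3 rose and 0 fell. Among the 29 accessory subunits, which surround and stabilise the core, 6 rose and 2 fell. Ndufb3 (chr1:58586384-58595964), an accessory subunit of the membrane arm, stood at 2226 and 1909 normalized counts in WT and 3498 and 3676 in KO. The groups were well apart, and the log2 difference was 0.80 ± 0.10 (SE, limma adjusted p = 0.00503). Ndufv3, an accessory subunit of the NADH-oxidising module, stood at 2302 and 2055 in the WT libraries and 3236 and 3923 in the KO libraries. Its log2 difference was 0.71 ± 0.12 (limma adjusted p = 0.0124). Ndufab1, the mitochondrial acyl carrier protein, which also serves fatty acid synthesis in the organelle, stood at 2041 and 1820 in WT and 2579 and 2987 in KO. It rose by 0.53 ± 0.11 on the log2 scale (limma adjusted p = 0.0195).

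The core subunits that rose did so by less. Ndufs3, which lies near the ubiquinone site, stood at 2052 and 1998 in the WT libraries and 2425 and 2878 in the KO libraries (log2 difference 0.38 ± 0.10, limma adjusted p = 0.0392). Ndufs1, which holds iron-sulfur clusters, stood at 4220 and 3683 in WT and 4789 and 5270 in KO, with a log2 difference of 0.35 (limma adjusted p = 0.0471). Ndufv1, which binds the flavin and NADH, lay closest to the threshold, at 3872 and 3869 in WT and 4481 and 5210 in KO (0.32, limma adjusted p = 0.05 when rounded). Its value ran from 0.21 without KO replicate 2 to 0.43 without KO replicate 1. Ndufa2, Ndufc2 and Ndufb4, all accessory subunits, completed the 9 that rose, with log2 differences of 0.32, 0.29 and 0.57. The rise of Ndufb4 rested most on KO replicate 2, which stood at 1764 against 1303 in KO replicate 1 and 1029 and 1014 in WT; without KO replicate 2 its difference was 0.35, without KO replicate 1 it was 0.79. Of Ndufb4 windows of 50 bases, 37% also occur in another gene's transcripts, and of Ndufs3 windows 39.7%, so their counts may be split with copies.

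In the other direction, 2 accessory subunits of complex I fell. That was 5.56% of the complex, below the 24.4% of all tested genes called lower. Ndufa11, which sits where the membrane arm contacts complex III in supercomplexes, stood at 1759 and 1856 in the WT libraries and 1330 and 1460 in the KO libraries. Its log2 difference was -0.37 ± 0.08 (limma adjusted p = 0.0213). Ndufa6, a member of the LYR family that binds the acyl carrier protein, stood at 2685 and 2814 in WT and 2122 and 2296 in KO, a difference of -0.32 ± 0.07 (limma adjusted p = 0.0265). In both genes each KO library lay below each WT library, while Ndufab1, the partner of Ndufa6, lay above. Ndufa1, Ndufa5 and Ndufb11 were also lower in both KO libraries, by 0.27, 0.25 and 0.18 in size, without passing the test. These 3 were singled out after their values were seen. Per kilobase of transcript, Ndufb8 and Ndufb9 had the highest levels in the complex, 7033 and 6297 normalized counts per kb in WT, and neither passed the test.

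Complex II, which is also the succinate dehydrogenase of the citrate cycle and has no mitochondrially encoded subunit, had values of one direction. All 4 subunits were higher in both KO libraries than in both WT libraries, and 3 passed the test. Among all tested genes, 38.9% lay above without overlap and 22.4% were called higher. Sdha, the flavoprotein with the catalytic site, stood at 13108 and 11562 normalized counts in WT and 15762 and 17124 in KO. Its log2 difference was 0.42 ± 0.11 (SE, limma adjusted p = 0.0343). The membrane anchors Sdhc and Sdhd had log2 differences of 0.36 ± 0.08 and 0.40 ± 0.12 (limma adjusted p = 0.0269 and 0.0487). Sdhc stood at 4051 and 3891 in WT and 4821 and 5423 in KO. Sdhd stood at 4227 and 3574 in the WT libraries and 4839 and 5473 in the KO libraries, without overlap. Sdhb, the iron-sulfur subunit, stood at 3908 and 3371 in WT and 4230 and 4665 in KO, and its difference of 0.29 ± 0.10 did not pass (limma adjusted p = 0.0818) and was 0.18 without WT replicate 2. Without KO replicate 1, 1 of the 4 was called, and without any of the other libraries 0 were.

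Complex III had 9 tested members with positive log2 differences, from 0.04 to 0.42 with a median of 0.25, and none passed the test. Both KO libraries lay above both WT libraries in 6, as they did for 38.9% of all tested genes. Cyc1, the haem-bearing cytochrome c1, stood at 4073 and 3558 in the WT libraries and 4245 and 5027 in the KO libraries. Its difference was 0.28 ± 0.12 (limma adjusted p = 0.126). Both Cyc1 and Uqcr11 depended on single libraries in size: Cyc1 ran from 0.16 without KO replicate 2 to 0.40 without KO replicate 1, and Uqcr11 from 0.21 to 0.49. The signs of Uqcrh and Uqcrfs1 turned negative without KO replicate 2, and that of Uqcrc2 without WT replicate 2. Uqcrh and Uqcr11, small subunits with the highest levels per length in the complex, stood at 7590 and 7202 normalized counts per kb in WT. Their log2 differences were 0.04 (limma adjusted p = 0.780) and 0.35 (limma adjusted p = 0.0635).

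**Figure D2:**
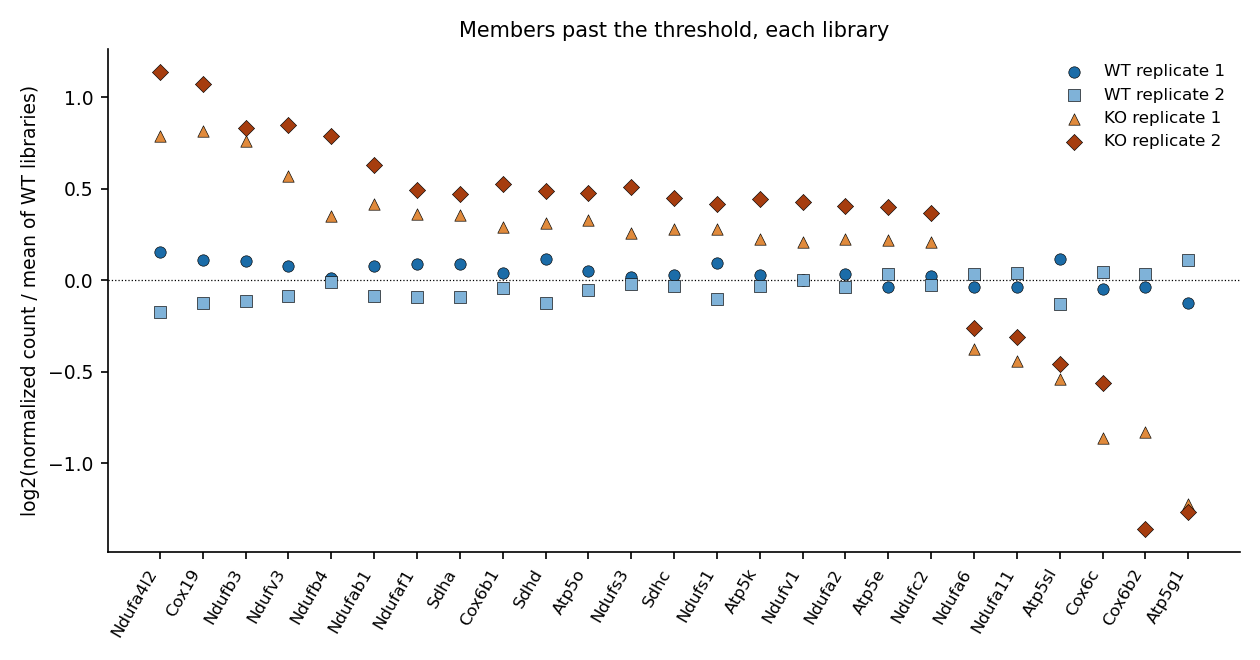
Level of each of the 25 members that passed the test in each library, as log2 of the normalized count over the mean of the WT libraries, ordered by fold change. The WT libraries lie near 0, KO replicate 2 lies above KO replicate 1 for the 19 members that rose, and Cox6b2 and Atp5g1 lie lowest.

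Complex IV, cytochrome c oxidase, had the widest spread of the complexes, with a standard deviation of 0.99 among its log2 differences. That spread lay in the tissue isoforms (1.48), whose counts were far lower than those of the common subunits. The common subunits had 0.30, against 0.27 in complex I and 0.40 in the ATP synthase. The part of low counts in the spread was not tested. Of 17 tested members, 2 rose, 2 fell and 13 did not pass, and the median log2 difference was 0.12. The shares that rose and fell, 11.8% each, lay below the 22.4% and 24.4% of all tested genes called higher and lower. Among the 11 common subunits, 1 rose and 1 fell. Cox6b1, which faces the intermembrane space, stood at 5658 and 5345 normalized counts in WT and 6719 and 7920 in KO (log2 difference 0.41 ± 0.10, limma adjusted p = 0.0357). Cox6c (chr15:35925886-35938246), a small membrane subunit, went the other way, at 7118 and 7580 in WT and 4046 and 4974 in KO. The difference of Cox6c was -0.71 ± 0.12 (limma adjusted p = 0.0121), and the call was lost without WT replicate 1 and without WT replicate 2. Per length it was among the most abundant members, at 14610 normalized counts per kb in WT and 8966 in KO. Of its 50-base windows, 21.1% also occur in Cox6c2. Cox4i1 and Cox8a, the common forms of subunits 4 and 8, had the highest levels of the complex, above Cox6c, at 16525 and 16713 normalized counts per kb in WT. Their differences were 0.03 (limma adjusted p = 0.822, with a negative sign without WT replicate 2 or KO replicate 2) and 0.36 (limma adjusted p = 0.0881, or 0.21 in size without KO replicate 2).

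The alternative forms of complex IV subunits had a wider range of differences than the common forms. In 6 tested tissue isoforms the log2 differences ran from -1.08 to 2.76, with a median of 0.88, whereas the common subunits ran from -0.71 to 0.41. That median includes Cox6a2, which passed the filter only through KO replicate 2. Cox8b (chr7:140898945-140900446) stood at 78.5 and 22.3 normalized counts in WT and 170 and 495 in KO. Both KO libraries were above both WT libraries, and the difference of 2.76 ± 0.81 just missed the threshold (limma adjusted p = 0.0508). It passed with a pseudocount of 5, with upper-quartile scaling and with DESeq2. Cox7a1 stood at 85.6 and 91.2 in WT and 86.2 and 271 in KO, so that 1 KO library was raised and the other lay within the WT range. Its difference of 0.79 became -0.03 without KO replicate 2. Cox6a2 was close to the detection floor, with 1 read in each WT library, 3 in KO replicate 1 and 37 in KO replicate 2. Its mean reached the filter only through KO replicate 2, the library where it was high, and without that library it was not tested. Its fitted log2 difference of 2.68 depends on the pseudocount and did not pass (limma adjusted p = 0.151).

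Cox6b2, the testis form of subunit 6b, fell. It stood at 128 and 135 normalized counts in WT and 74 and 51.3 in KO, with a log2 difference of -1.08 ± 0.25 (limma adjusted p = 0.0265). The testis forms Cox8c and Cox7b2 were too low to test: Cox8c had 3 and 17 reads in WT and 0 in both KO libraries, where a count of 0 allows up to 3 reads, and Cox7b2 had 2 and 7 reads in WT and 1 and 0 in KO. All 7 tested germ cell markers lay lower in both KO libraries, as did 40.6% of all tested genes. Summed over the germ cell list, levels were 412 and 2327 in WT, far apart from each other, and 23 and 138 in KO. A tie between these markers and the testis forms was not tested. Cox4i2, the lung form, stood at 112 and 97.7 in WT and 113 and 128 in KO and did not pass (limma adjusted p = 0.402). Ndufa4l2, a paralogue of the complex IV subunit Ndufa4 that is known for its induction at low oxygen, stood at 237 and 189 in the WT libraries and 367 and 469 in the KO libraries. It rose by 0.97 ± 0.19 (limma adjusted p = 0.0184), while Ndufa4 itself, at 6784 and 6570 in WT and 6726 and 7792 in KO, overlapped between the groups.

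**Figure D3:**
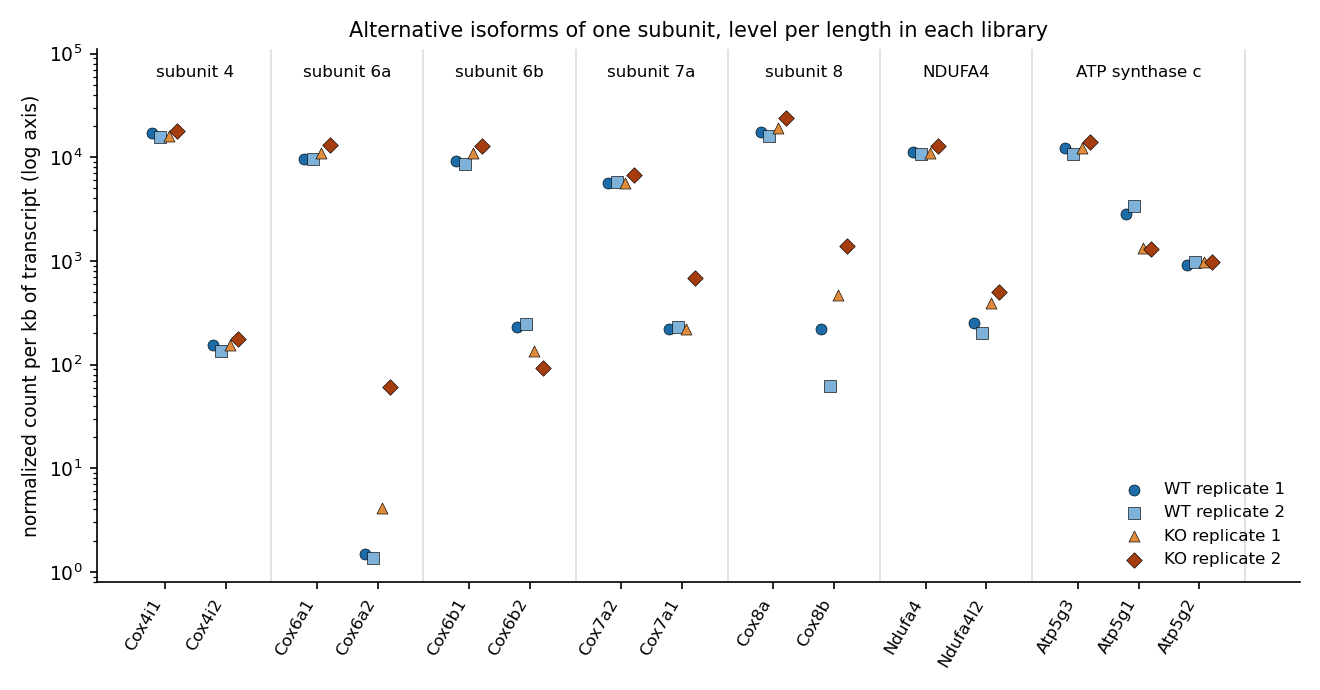
Normalized count per kb of transcript in each library, on a log axis, for the alternative forms of 6 complex IV subunits and of ATP synthase subunit c. The common form of each subunit lies above its alternatives in all 4 libraries, with Cox8b, Cox7a1 and Cox6a2 highest in KO replicate 2.

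The balance between forms was then read as a log2 ratio in each library, with an exact two-sided permutation test whose smallest possible p with 2 against 2 is 0.333. Of 8 ratios compared, 6 had groups that did not overlap and so reached that p; among all tested genes, 38.9% lay above and 40.6% below without overlap, so this count is near the background. Cox8b over Cox8a differed by 2.39, from -6.92 and -8.56 in WT to -5.96 and -4.73 in KO. On a per-length basis Cox8b made up 1.23% and 0.387% of the pair in WT and 2.39% and 5.44% in KO, so the common form dominated in every library. Ndufa4l2 over Ndufa4 differed by 0.85, from 2.23% and 1.84% of the pair per length to 3.44% and 3.78%. Cox6b2 over Cox6b1 differed by -1.49, from 2.47% and 2.74% of the pair to 1.22% and 0.719%. Cox6a2 over Cox6a1 differed by 2.35, or 1.33 with a pseudocount of 5 and 0.74 without KO replicate 2. This ratio was compared only because KO replicate 2 took Cox6a2 past the filter, so its lack of overlap carries little weight. Cox4i2 over Cox4i1 differed by 0.17. Cox7a1 over Cox7a2 differed by 0.69 with overlapping groups (exact permutation p = 0.667), and the ratio was level without KO replicate 2.

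Cox8b, Cox7a1 and Cox6a2 were set beside markers of brown fat and of striated muscle. Ucp1, the uncoupling protein of brown fat, stood at 21.4 and 5.6 normalized counts in WT and 228 and 2842 in KO, and it was the 1 of 7 markers of brown or thermogenic adipocytes, leaving out Cox7a1 and Cox8b, that rose. Summed over the 7, the level was 1475 and 1723 in WT and 1509 and 5064 in KO. Of 12 striated muscle markers 1 rose and 1 fell, their sum was 15838 and 23088 in WT and 1056 and 7674 in KO, and all 12 were higher in KO replicate 2 than in KO replicate 1. Myh4, a myosin of fast muscle, stood at 3.1 and 0 in the WT libraries and 15 and 1685 in the KO libraries. KO replicate 2 was the highest library for Cox8b, Cox7a1 and Cox6a2, for 6 of the 7 brown fat markers and for 9 of the 12 striated muscle markers. The others were highest in WT replicate 2 and lower in both KO libraries than in both WT libraries: the channel Kcnk3 of the brown fat list, and Acta1, Tnnc2 and Ckm, which make up most of the muscle sum in WT. Acta1, the skeletal muscle actin, stood at 9138 and 13526 in WT and 811 and 1955 in KO and was the muscle marker that fell. The muscle marker that rose was Myh1, a myosin, at 3.06 and 2.79 in WT and 22.5 and 201 in KO. The muscle list thus held markers of both directions between the groups. The part of brown fat or muscle RNA in the values of the isoforms was not tested.

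**Figure D4:**
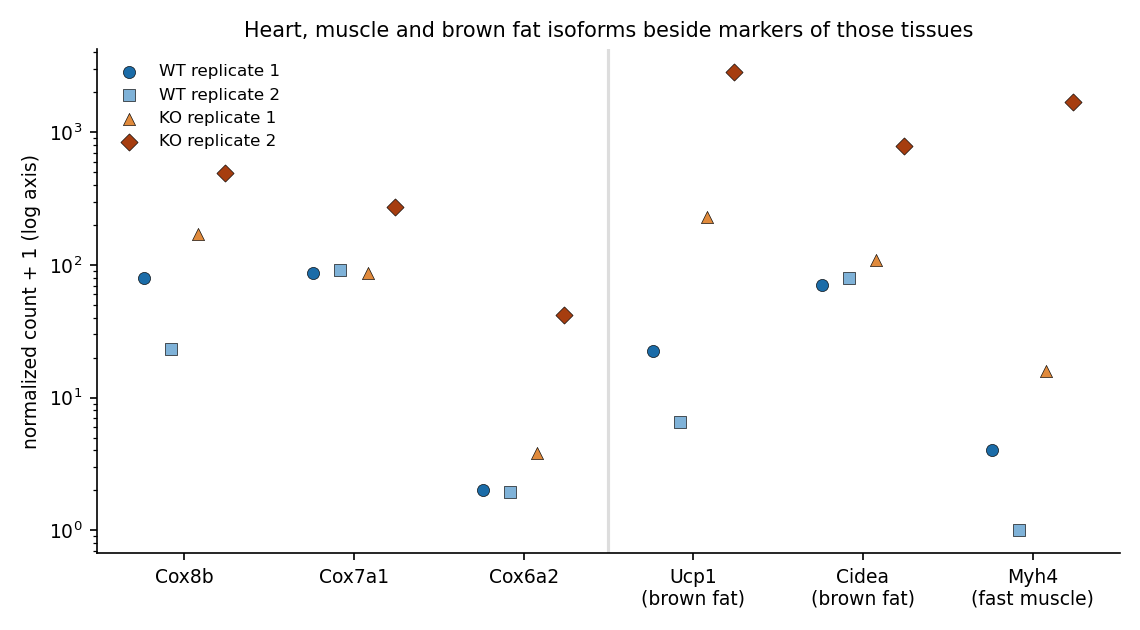
Normalized count + 1 on a log axis in each library for Cox8b, Cox7a1 and Cox6a2, beside the brown fat markers Ucp1 and Cidea and the fast muscle myosin Myh4, examples from lists in which Kcnk3, Acta1, Tnnc2 and Ckm were highest in WT. KO replicate 2 is highest for each of the 6 genes shown, and KO replicate 1 lies within the WT range for Cox7a1.

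In the ATP synthase, 3 of 15 members rose and 1 fell, while 11 did not pass, and the median log2 difference was 0.19. The share that rose, 20%, was near the 22.4% of all tested genes called higher. Atp5b, the catalytic beta subunit, had the highest level per length of all members, at 20071 normalized counts per kb in WT and 26515 in KO. In counts it stood at 40252 and 36659 in WT and 47262 and 54344 in KO, and its difference of 0.40 ± 0.15 did not pass (limma adjusted p = 0.0879). Atp5o, the OSCP subunit that joins the head to the peripheral stalk, stood at 3854 and 3595 in the WT libraries and 4676 and 5179 in the KO libraries. It rose by 0.40 ± 0.08 (limma adjusted p = 0.0203). Of its 50-base windows, 50.3% also occur in transcripts of other entries, most often another protein-coding entry of the same name. Atp5e, the epsilon subunit of the central stalk, and Atp5k, subunit e in the membrane, rose by 0.31 and 0.33 (limma adjusted p = 0.0456 and 0.0480).

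The 3 genes for subunit c, the ring through which protons pass, encode the same mature protein behind different import sequences, and their values differed. Atp5g1 (chr11:96068852-96075670) stood at 1704 and 2005 normalized counts in WT and 795 and 772 in KO. It had the smallest adjusted p of all members, with a log2 difference of -1.24 ± 0.10 (SE, limma adjusted p = 0.00214), and was called in each of the 10 other settings as well. Atp5g2 stood at 669 and 716 in the WT libraries and 706 and 710 in the KO libraries, a difference of 0.03 that took the opposite sign without WT replicate 1. Atp5g3, the most abundant form, stood at 8763 and 7742 in WT and 8741 and 10041 in KO, and the groups overlapped. Per length Atp5g1 therefore went from 18.9% and 23.7% of its sum with Atp5g3 to 9.82% and 8.43%. The log2 ratio of Atp5g1 over Atp5g3 differed by -1.42, without overlap (exact permutation p = 0.333), whereas Atp5g2 over Atp5g3 differed by -0.15 with overlap (exact permutation p = 0.667).

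Reads of Atp5g1 cannot be assigned with certainty, since 66% of its 50-base windows occur in other genes' transcripts, most often in the pseudogene Gm10039. Gm10039 stood at 216 and 221 normalized counts in WT and 95.6 and 89.3 in KO, a log2 difference of -1.23 (limma adjusted p = 0.00485). The copy thus lay lower in KO as well, by about the same amount as Atp5g1. For Atp5g2 the shared part was 87.4%.

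Assembly factors and related proteins matched by the rule had 2 members that rose and 1 that fell of 19 tested, with a median log2 difference of 0.17. Their shares, 10.5% higher and 5.26% lower, lay below the 22.4% and 24.4% of all tested genes. Cox19, which serves copper delivery to complex IV, stood at 901 and 766 normalized counts in WT and 1468 and 1753 in KO. It rose by 0.95 ± 0.13 (limma adjusted p = 0.00728). Ndufaf1, which acts in the assembly of complex I, stood at 727 and 642 in the WT libraries and 880 and 964 in the KO libraries and rose by 0.43 ± 0.10 (limma adjusted p = 0.0300). Atp5sl, named for its likeness to ATP synthase subunit s, stood at 731 and 616 in WT and 463 and 490 in KO and fell by 0.49 on the log2 scale (limma adjusted p = 0.0300). Cox7a2l, which helps join complexes III and IV, stood at 4612 and 4420 in the WT libraries and 4129 and 4134 in the KO libraries; its difference of -0.13 did not pass (limma adjusted p = 0.156). Cox17, a copper chaperone, differed by -0.03, or 0.02 without WT replicate 2.

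Genes that work beside the members were read from lists. The mitochondrially encoded subunits had 12 tested genes with positive log2 differences, a median of 0.24, and 0 past the limma threshold. In all 12, KO replicate 2 lay above KO replicate 1. Of 26 tested assembly factors outside the rule, 6 rose and 3 fell, with a median of 0.26. Their share called higher, 23.1%, was near the 22.4% of all tested genes. Atpaf2, which assembles the ATP synthase head, stood at 1150 and 974 in WT and 2138 and 2703 in KO and rose by 1.18 ± 0.15 (limma adjusted p = 0.00582). Acad9, Tmem126b and Nubpl, which act on complex I, rose by 0.73, 0.53 and 0.60. The 3 that fell were Coa3, an early factor of complex IV, Lrpprc, which stabilises mitochondrial mRNA, and Ttc19 of complex III, by 0.38, 0.47 and 0.44 in size.

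Electron carriers and feeders had 7 genes of 16 that rose (43.8%, against 22.4% of all tested genes) and 0 that fell, with a median of 0.24. They included the flavoproteins that pass electrons from fatty acid oxidation to ubiquinone. Etfa stood at 5294 and 4338 in the WT libraries and 10969 and 11995 in the KO libraries, a log2 difference of 1.26 ± 0.12 (limma adjusted p = 0.00306). Etfdh rose by 0.76 and Etfb by 0.55, and the ubiquinone synthesis genes Coq6, Coq9, Coq3 and Coq2 by 0.63, 0.51, 0.48 and 0.43. Of 16 citrate cycle genes, 9 rose and 0 fell, with a median of 0.43. Idh3a, the catalytic subunit of the NAD-linked isocitrate dehydrogenase, stood at 3980 and 3115 in WT and 8736 and 11301 in KO and rose by 1.5 ± 0.18 (limma adjusted p = 0.00517). Dld, Sucla2 and Idh3g rose by 0.60, 0.47 and 0.44. The share of citrate cycle genes called higher, 9 of 16, was thus above the 22.4% of all tested genes, which the members were not.

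ATP and phosphate exchange proteins had 0 genes of 7 that rose and 2 that fell, with a median of -0.06. The share that fell, 28.6%, was near the 24.4% of all tested genes called lower. Atpif1, the protein that inhibits the ATP synthase when it runs in reverse, stood at 2379 and 2844 normalized counts in WT and 930 and 924 in KO. It fell by 1.49 on the log2 scale (SE 0.11, limma adjusted p = 0.00160). Vdac2, a pore of the outer membrane, fell by 0.43. Of 13 regulators of mitochondrial biogenesis, 1 rose and 1 fell. These shares, 7.69% each, lay below the 22.4% and 24.4% of all tested genes called higher and lower. Esrrg, a nuclear receptor that drives genes of oxidative metabolism, stood at 188 and 174 in WT and 35.6 and 70.3 in KO, a difference of -1.83 ± 0.37 (limma adjusted p = 0.0187). Gabpa, which encodes the ETS factor named above, rose by 0.27 (limma adjusted p = 0.0323). Ppargc1a, the coactivator of this programme, stood at 161 and 134 in the WT libraries and 176 and 237 in the KO libraries and did not pass (limma adjusted p = 0.140), and Nrf1 and Yy1 did not pass either.

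**Figure D5:**
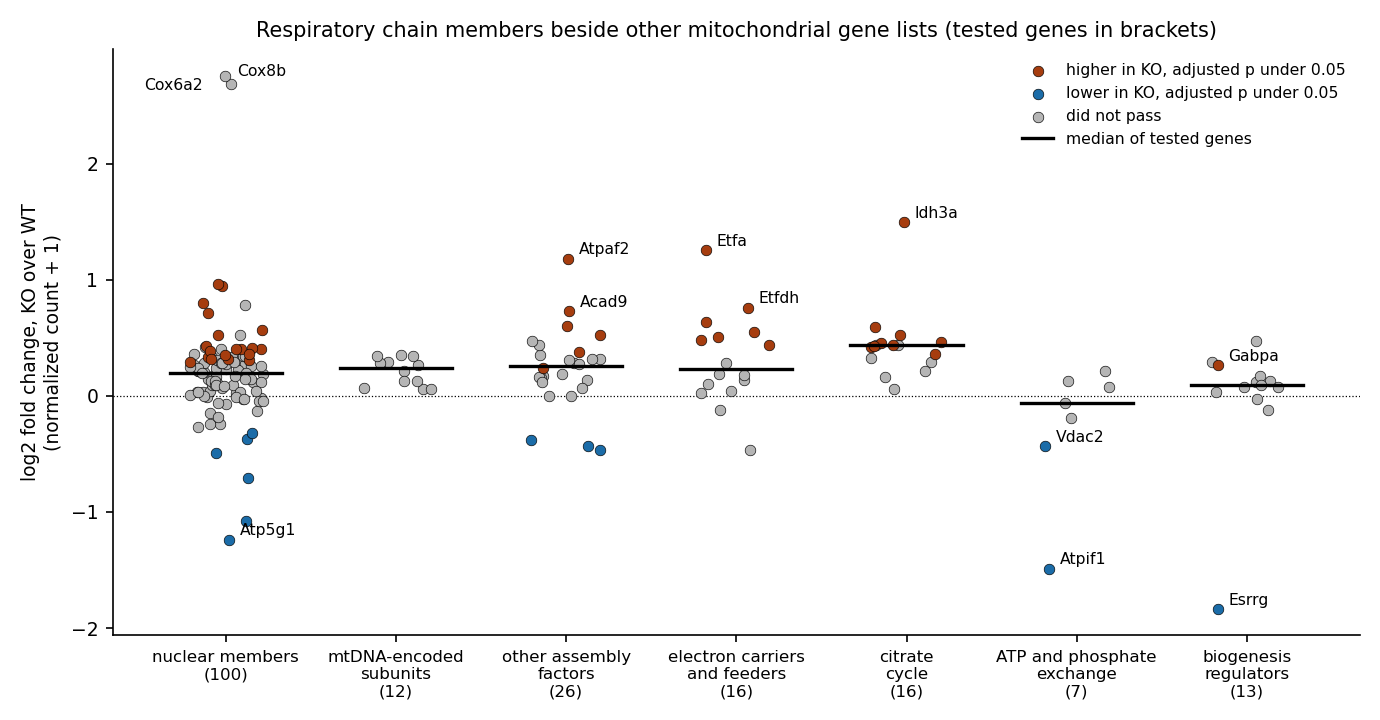
Log2 fold change, KO over WT on log2(normalized count + 1), of the 100 tested members beside 6 other mitochondrial gene lists. Points are genes coloured by limma call and bars are medians; the citrate cycle has the highest median, 0.43, and Atp5g1, Atpif1 and Esrrg lie lowest.

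Read with their sign, most members had lower log2 differences than the median marker of fat cells. The 12 mature adipocyte markers had log2 differences from 0.23 to 2.92. Of the 100 tested members, 98 lay below the median of those markers, 1.62, and 54 lay below their lowest value. The sign is kept, so the 54 include members that fell, such as Atp5g1 at -1.24 and Cox6b2 at -1.08. Cox8b and Cox6a2 were the 2 members above the median, and neither passed the test. Cox6a2 was tested only because of its level in KO replicate 2.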

How the data were processed

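RNA from epididymal white adipose tissue was measured in 2 WT and 2 KO libraries, made with a TruSeq RNA kit per the labels' protocols. The submitters' processing notes name DESeq2 1.4.5, HTSeq 0.5.3, TopHat2 2.0.10 and CASAVA 1.8, without their order, and the build GRCm38; the sources used here give no strand setting. What the authors deposited was a signal per gene, the read count over a library's size factor (a normalized count), plus their own comparison, which holds a log2 fold change, a p-value and a score (the test statistic) for each gene and was not used for results. Whole reads were recovered from the deposited signal (100% whole within 0.01).

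The test, for genes whose mean reached 10, was limma 3.58.1 (R 4.3.3, intensity trend) on log2(normalized count + 1), which understates changes of low genes, with Benjamini-Hochberg adjustment at 0.05. Alternatives ran DESeq2 1.42.0 or edgeR 4.0.16 on recovered reads, other pseudocounts, filters and scalings, a replicate block, and each library left out. Replicates differed beyond sampling noise (chi-square per degree of freedom 52.3 in WT, 36.8 in KO). Levels per kb used the shortest RefSeq-linked principal transcript of GENCODE M21, which also gave positions; promoter windows are from RefSeq. The method was also run on simulated data with far fewer changed genes than were called here, so that run does not measure its error in these data.

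Members and lists were chosen with earlier results of these data known. Genes named were Nck2, isoform pairs, complex II, Cyc1, Cox7a2l, in each complex up to 8 past the threshold and the 2 highest per length, members that fell, and up to 4 genes of each other list. Ndufb4, Ndufs1 and Ndufv1 were added after their values were seen, as were the regulators and markers named beside a result.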

Additional observations from a re-analysis of the deposited data

How the results depend on the processing

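The count of members that rose, 19, was 11 without a filter, and other settings gave 13 (edgeR) to 26 (upper-quartile scaling); the count that fell, 6, was 6 or 7. With the replicate number as a block, 4 rose and 3 fell. Same-numbered libraries did not deviate together over all tested genes (r = -0.01 over 16710 genes), and over the 100 members r was -0.277. The labels give a replicate number and no pairing. With 2 libraries per group this check cannot decide whether same-numbered samples share a batch. Leaving out each library gave 1 to 30 higher, 1 to 4 lower, and medians of 0.11 to 0.27. By complex, members called higher were 4 in complex I and 1 in the ATP synthase without a filter; 1 in the ATP synthase with edgeR; 1 in complex III with TMM; 2 in complex III and 4 in complex IV with upper-quartile scaling; and 5 in complex IV and 5 in the ATP synthase with DESeq2. Under the block, higher and lower were 2 and 1 in complex I, 1 and 1 in complex IV and 1 and 0 among assembly factors, with 0 higher in complex II and in the ATP synthase. Without single libraries, higher and lower ran from 1 to 13 and 0 to 2 in complex I, 0 to 7 and 0 to 2 in complex IV, and 0 to 2 and 0 to 0 among assembly factors; higher ran from 0 to 1 in complex II, 0 to 2 in complex III and 0 to 5 in the ATP synthase. Signs turned, far from the threshold, for 14 of 99 members tested without KO replicate 2, 7 of 100 without KO replicate 1, 6 without WT replicate 1 and 5 without WT replicate 2. Among the genes named by rule, 6 turned without KO replicate 2, whose log2 differences without single libraries ran from -0.052 to 0.11 (Cox4i1), -0.035 to 1.61 (Cox7a1), -0.031 to 0.22 (Cox7a2), -0.060 to 0.13 (Cox7b), -0.0076 to 0.24 (Ndufb9) and -0.076 to 0.15 (Uqcrh). They also turned without WT replicate 1 for Atp5g2 (-0.017 to 0.081) and without WT replicate 2 for Cox17 (-0.073 to 0.015) and Cox4i1 (-0.036). The cause of these changes was not tested; fits without a library have fewer samples, and where an arm has 1 library it is assumed to vary like the other group. Ndufa11, Atp5g1, Cox6c, Ndufv3, Ndufb3, Ndufa4l2 and Cox19 were called in all 10 other settings that kept every library.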
